A study of Mus musculus with 6 samples.

Results

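The genes described here are 94 of the 26436 genes in a table that compares differentiated with undifferentiated CAD cells, and they encode enzymes that write or erase chemical marks on histones and DNA, with a few of their core partners. They were chosen by symbol and not by any measured value, though earlier results of these data were known when the choice was made. The symbols taken were those of the lysine demethylases (Kdm), lysine methyltransferases (Kmt, Setd, Suv39h, Ehmt), arginine methyltransferases (Prmt), acetyltransferases (Kat with a and b forms, Ep300, Crebbp), deacetylases (Hdac, Sirt), DNA methyltransferases and their cofactors (Dnmt, Uhrf), DNA demethylases (Tet), Polycomb repressive complex 2 (Ezh1, Ezh2, Eed, Suz12) and CHD chromatin remodelers (Chd).

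Histones are the proteins around which DNA is wrapped, and small groups added to their tails change how tightly a gene is packed and which proteins can read it. Methylation of histone H3 at lysine 9 and lysine 27, and of cytosines in DNA, goes with silent chromatin, while acetylation and methylation of H3 at lysine 4 go with active genes. When a cell copies its DNA, these marks have to be laid down again on the new strands, so part of this machinery serves dividing cells, while neurons keep other members for use after they have stopped dividing.

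CAD is a mouse cell line of the central nervous system with a catecholaminergic character, meaning that of nerve cells that make dopamine or noradrenaline. Differentiated cells (3 libraries) had been moved for 5 days into a DMEM/F12 medium without serum, to which a supplement of insulin, transferrin and selenium was added. Undifferentiated cells (3 libraries) stayed in the same basal medium with 10% fetal bovine serum. Both media held penicillin and streptomycin, and all libraries come from 1 cell line grown in small flasks. Loss of serum went together with differentiation in this design, and their effects cannot be told apart. The libraries carry replicate numbers, but no label states whether these pair libraries across the groups. Nor does a label state that each library was a culture of its own. The p-values thus cover the spread between libraries only, which may be technical.

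The authors' deposited table holds 1 row per gene, with a mean normalized count, a log2 fold change (positive where differentiated cells were higher), its standard error (SE) and a p-value, and no value of a single library. Levels in each group are therefore given as implied means, worked out from the mean and the fold change on the assumption that the mean covers exactly these 6 libraries in equal groups. Library depths are unknown, and overlap of single libraries between the groups could not be read. A gene was called when its adjusted p in the authors' Wald test (DESeq2, Benjamini-Hochberg over 20285 genes) was under 0.05. In bulk RNA, fewer cells that use a gene and less of its RNA per cell cannot be told apart. Of 9 catecholaminergic markers, 3 were called higher, 2 lower and 4 not called. The 2 called lower were the transcription factor Phox2a, at an implied 5354 normalized counts in differentiated and 9773 in undifferentiated cells (-0.87, adjusted p 5.97e-08 in the authors' deposited table), and Dbh, which makes noradrenaline from dopamine, at 14.0 in differentiated and 569 in undifferentiated cells (-5.35, adjusted p 3.63e-16 in the authors' deposited table). Th, the rate-limiting enzyme of catecholamine synthesis, was low at 102 in differentiated and 80.6 in undifferentiated cells. Of 7 tested pan-neuronal markers, 3 were called higher and 0 lower, namely Tubb3 at 0.50, Map2 at 0.59 and Syp at 0.73 in the authors' deposited table, while the uncalled Elavl3 and Elavl4 stood at -0.43 and -0.17 there. Summed implied counts of marker lists for astrocytes, oligodendrocytes, microglia, fibroblasts and Schwann cells lay between 5.68 and 114 in differentiated cells and between 5.49 and 79.1 in undifferentiated cells. The endothelial list summed to 810.2 in differentiated and 469 in undifferentiated cells, nearly all of it Pecam1, an adhesion molecule.

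Of the 94 enzyme genes, 92 had an adjusted p, and in 89 of those the mean normalized count was at least 100. Called higher in differentiated cells were 24, called lower were 26, and 42 were not called. The called share was 54.3%, against 35.9% of all genes tested, of which 18.2% were higher and 17.7% lower. Well expressed genes, meaning here the 13197 genes with a mean normalized count of 100 or more, are the closer background, since the median mean was 2136 for the enzyme genes and 424 for all genes tested. In that background 47.5% were called, 21.9% higher and 25.6% lower, so the enzyme genes, with 26.1% higher and 28.3% lower, stood only a little above it in each direction. Their median log2 fold change was -0.03, the same to 2 decimals as for well expressed genes and close to 0.01 for all genes tested. With a fold of at least 1.5, 12 of the 92 enzyme genes were called higher and 8 lower. Of the 20285 genes tested, 2355 were called higher and 1431 lower by that rule. Only Hdac11 and Kdm7a were called higher by 2-fold or more, and only Uhrf1 lower by that much. The share of all genes at 2-fold was not computed. The split of calls moved with transcript length. The enzyme genes have long transcripts (median of the longest transcript 4660.5 nt, against 2773.5 nt for well expressed genes). The median log2 fold change of well expressed genes was 0.06 in the tertile with the longest transcripts and -0.13 in that with the shortest. With that trend removed, 18 enzyme genes were called higher and 32 lower. The counts over all genes moved the same way, from 3689 higher and 3589 lower to 3214 higher and 3868 lower.

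Calls differed by role. Of 15 tested genes that write or maintain DNA methylation, H3 lysine 9 methylation or H3 lysine 27 methylation, 12 fell (80.0%), 1 rose and 2 were not called, with a median of -0.50 on the log2 scale. Of 20 tested genes of the Tet and lysine demethylase classes, 9 rose (45.0%), 1 fell and 10 were not called, with a median of 0.19. These remove methyl groups from histones or oxidise them on DNA. Among well expressed genes the shares were 25.6% lower and 21.9% higher, and the difference between the role groups was not tested. Both groups pool several of the 11 role classes, and this pooling was not part of the plan. Methyltransferases of the remaining classes are in neither group. Of 16 other lysine methyltransferases 3 rose and 2 fell, and of 8 arginine methyltransferases 1 rose and 2 fell. Methyltransferases and demethylases whose symbols the choice did not take are in neither group as well. They form a later list of 23 tested genes, of which 5 fell and 1 rose. None of the demethylases in that list was called higher.

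**Figure D1:**
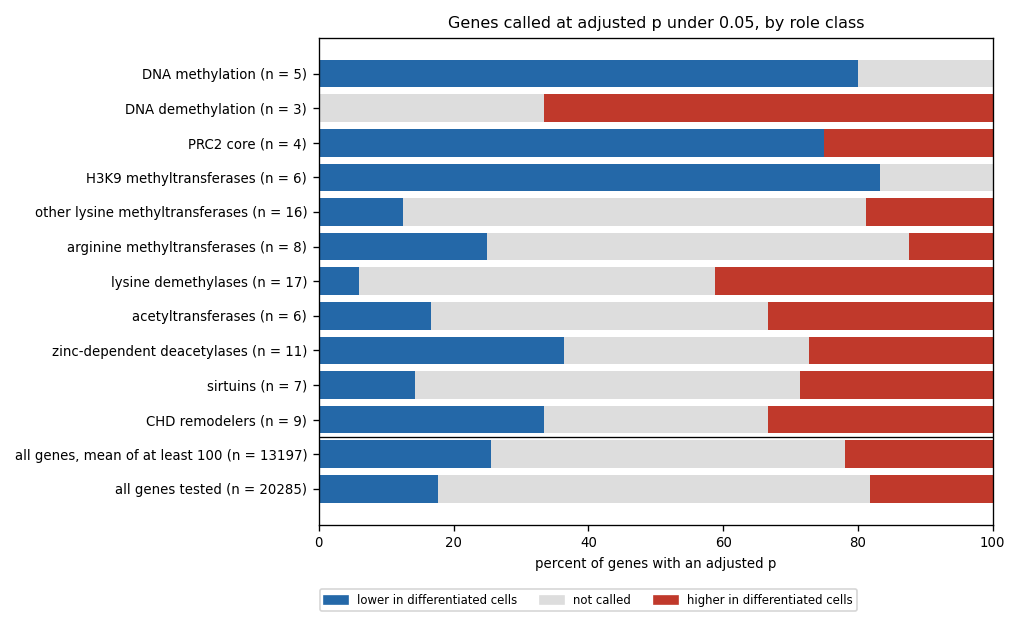
Percent of genes called lower (blue), not called (grey) and called higher (red) in differentiated CAD cells at an adjusted p under 0.05, for 11 role classes and, below the line, for well expressed genes (mean normalized count from 100 up) and for all genes tested. Blue fills 80.0% of the DNA methylation bar and red 41.2% of the lysine demethylase bar, against 25.6% and 21.9% of well expressed genes.

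Proliferation markers moved with this pattern and stand beside it throughout. All 18 of them fell, with a median log2 fold change of -1.04 (range -1.52 to -0.44) in the authors' deposited table. Their implied counts summed to 77047 in differentiated cells, against 160489 in undifferentiated cells. Their part in the values of the enzyme genes was not tested.

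The DNA methylation genes had the lowest median of the role classes, -0.94, with 4 of 5 tested members called lower. Dnmt1 (chr9:20907209-20959888, GRCm38), which copies methylation onto newly made DNA, had an implied mean of 4955 normalized counts in differentiated cells, against 9637 in undifferentiated cells. Its log2 fold change was -0.96 (SE 0.10, adjusted p 9.70e-21) in the authors' deposited table, which is 1.94-fold lower. Uhrf1 (chr17:56303321-56323486), which reads half-methylated DNA behind the replication fork and brings Dnmt1 to it, had 3798 in differentiated and 7834 in undifferentiated cells and fell by 1.04 (SE 0.13, adjusted p 3.31e-13) in the authors' deposited table. Both arms of the maintenance system thus fell by a similar amount. Its relative Uhrf2 fell by only 0.30 (SE 0.12, adjusted p 0.0329) in the authors' deposited table, and the 95% intervals of the 2 genes, -1.31 to -0.78 and -0.53 to -0.07, lay apart. Centring on the median gene, or removing the trend with mean expression, ended the call of Uhrf2.

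The enzymes that set new DNA methylation did not move together. Dnmt3b had implied means of 230.0 in differentiated and 442 in undifferentiated cells and fell by 0.94 (SE 0.16, adjusted p 2.44e-08) in the authors' deposited table. Dnmt3a, the main such enzyme of mature neurons, had 4480 in differentiated and 4217 in undifferentiated cells, with a log2 fold change of 0.09 (SE 0.18, adjusted p 0.768) that was not called in the authors' deposited table. The interval of Dnmt3a, -0.27 to 0.45, lay apart from those of Dnmt1 and Dnmt3b, and its SE was 1.77 times the median of genes of equal mean. Dnmt3c, a near copy of Dnmt3b known from the mouse germ line, has no symbol in the table and was found by its gene ID. It had a mean of 49.7 and a log2 fold change of -0.84 (adjusted p 0.0231) in the authors' deposited table, but reads of such close copies can be shared between them, so its value is uncertain. Dnmt3l, the inactive partner of these enzymes, and the antisense transcript Dnmt3aos had means of 0.286 and 0.465 and no adjusted p.

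The Tet enzymes, which oxidise methylated cytosine as the first step of its removal, went the other way in 2 of 3 cases. Tet1 (chr10:62804570-62908996) stood at an implied 1329 in differentiated cells, against 740 in undifferentiated cells. It rose by 0.84 on the log2 scale (SE 0.14, adjusted p 1.95e-08) in the authors' deposited table. Tet2 had 1219 in differentiated and 816 in undifferentiated cells and rose by 0.58 (SE 0.12, adjusted p 2.86e-05) in the authors' deposited table. Tet3 had the highest mean count of the Tet genes, 2986, and a value of 0.18 (SE 0.14, adjusted p 0.329) that was not called in the authors' deposited table. The intervals of Tet1 and Tet3 lay apart, and that of Tet2 overlapped both.

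Polycomb repressive complex 2 methylates H3 at lysine 27 and consists of Eed, Suz12 and 1 of 2 catalytic subunits. Of these, Ezh2 is the form of dividing cells and Ezh1 the form that persists in cells that have stopped dividing. Ezh2 (chr6:47530139-47595341) was at an implied 1746 in differentiated and 3159 in undifferentiated cells and fell by 0.86 (SE 0.13, adjusted p 2.21e-09) in the authors' deposited table. Ezh1 (chr11:101191115-101226463) was at 791 in differentiated and 588 in undifferentiated cells and rose by 0.43 (SE 0.14, adjusted p 0.00897) in the authors' deposited table. The 95% intervals of the pair, 0.15 to 0.70 for Ezh1 and -1.11 to -0.60 for Ezh2, lay on opposite sides of 0. Per kb of longest transcript, Ezh2 made up 76.9% of the summed Ezh level in differentiated cells and 89.0% in undifferentiated cells, so it stayed the main form in both. The shared subunits fell too, with intervals that overlapped that of Ezh2. Eed fell by 0.43 (SE 0.13, adjusted p 0.00264) and Suz12 fell by 0.50 (SE 0.09, adjusted p 7.71e-07) in the authors' deposited table.

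Some promoters are printed here as examples, picked because they hold the letters of a site for E2F factors, with Ezh1 set beside Ezh2. E2F factors are known to switch on genes of DNA replication in dividing cells. The choice does not show how such letters go with the calls. Eed, which fell, has no match, and Dnmt1, which fell with a match, is not printed. Sirt4, Kdm5b and Kdm3a, which rose, hold a match and are not printed either. Sequences are RefSeq's for GRCm38.p6, 5′ to 3′ on the strand of the gene, and capitals mark an E2F-type match. The stretch of Ezh2 runs from 100 bases before its start to 30 after it (chr6:47595001-47595130, minus strand), and its match begins 4 bases after the start. The same stretch of Ezh1 (chr11:101226434-101226563, minus strand) has no match.
Ezh2: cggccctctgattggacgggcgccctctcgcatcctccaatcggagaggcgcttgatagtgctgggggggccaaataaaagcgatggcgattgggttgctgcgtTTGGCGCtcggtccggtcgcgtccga
Ezh1: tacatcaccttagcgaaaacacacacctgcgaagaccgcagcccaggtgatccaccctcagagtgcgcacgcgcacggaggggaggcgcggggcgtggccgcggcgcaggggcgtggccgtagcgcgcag

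The match takes another form, at other distances, in 3 further genes that fell. In Uhrf1 it lies 48 bases before the start (chr17:56303259-56303366, plus strand), in Suv39h2, an H3 lysine 9 methyltransferase, 145 bases before it (chr2:3475052-3475161, minus strand), and in Suz12 218 bases before it (chr11:79992858-79992967, plus strand).
Uhrf1: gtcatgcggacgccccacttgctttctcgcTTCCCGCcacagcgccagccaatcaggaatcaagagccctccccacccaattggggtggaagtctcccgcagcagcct
Suv39h2: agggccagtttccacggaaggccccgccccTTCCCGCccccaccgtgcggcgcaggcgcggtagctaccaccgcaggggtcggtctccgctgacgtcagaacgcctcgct
Suz12: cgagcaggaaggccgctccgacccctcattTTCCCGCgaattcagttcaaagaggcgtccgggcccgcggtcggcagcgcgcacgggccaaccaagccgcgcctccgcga

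The match was an exact hit on either strand to the letters TTGGCGC, to their variants TTCGCGC and also TTCCCGC, or to the form TTGCCGC, in windows from 250 bases before to 50 after a start. A window was found for 76 of the 92 tested enzyme genes. A gene counted when any of its windows held a match, and some genes have several windows. Shares of all windows count single windows, so they are not like for like with shares of genes. Well expressed genes were counted per gene, as the enzyme genes were, and are the closer comparison. Of those that fell, 9 of 22 held a match (40.9%), namely Uhrf1, Uhrf2, Dnmt1, Suv39h1, Suv39h2, Ezh2, Suz12, Kat2a and Prmt1. Of those that rose, 3 of 18 did (16.7%), Sirt4, Kdm5b and Kdm3a, and of those not called, 3 of 36 did (8.33%). Among well expressed genes the shares were 27.2% of those that fell, 17.1% of those that rose and 19.4% of those not called, and 9.57% of all 32851 windows held a match. With windows cut to 100 bases before the start, the counts of the enzyme genes were 6 of 22 lower, 3 of 18 higher and 2 of 36 not called. Their shares were 27.3%, 16.7% and 5.56%, against 17.4%, 9.54% and 11.3% of well expressed genes in the same order. The letters of another element of cell cycle promoters, CHR (either TTTGAA or the form TTCGAA), were found in 7 of 22 genes that fell, 2 of 18 that rose and 5 of 36 not called, against 19.2% of all windows and 19.9% of well expressed genes that fell. With windows cut to 100 bases before the start these counts were 2 of 22 (9.09%), 0 of 18 and 3 of 36, against 10.9% of well expressed genes that fell. The CCAAT box (CCAAT) has a reverse form, ATTGG, that can share letters with TTGGCGC. The box was in 13 of 22, 8 of 18 and 14 of 36 of the same groups, against 37.4% of all windows. In well expressed genes its shares were 45.1%, 44.1% and 43.9% in the same order. The NRF1-type letters GCATGCG were in 2, 1 and 3 genes of these groups, against 3.58% of all windows. These were 9.09%, 5.56% and 8.33% of the enzyme genes, close to the 9.49%, 5.50% and 8.30% of well expressed genes. The CRE-type letters TGACGTC were in 2 of each group, against 3.21% of windows and 6.54%, 6.81% and 6.82% of well expressed genes. The E-box CACGTG was in 2, 0 and 6, against 7.15% of windows and 13.03%, 10.22% and 12.73% of well expressed genes. A match describes the letters of a promoter and does not show that a factor binds there.

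**Figure D2:**
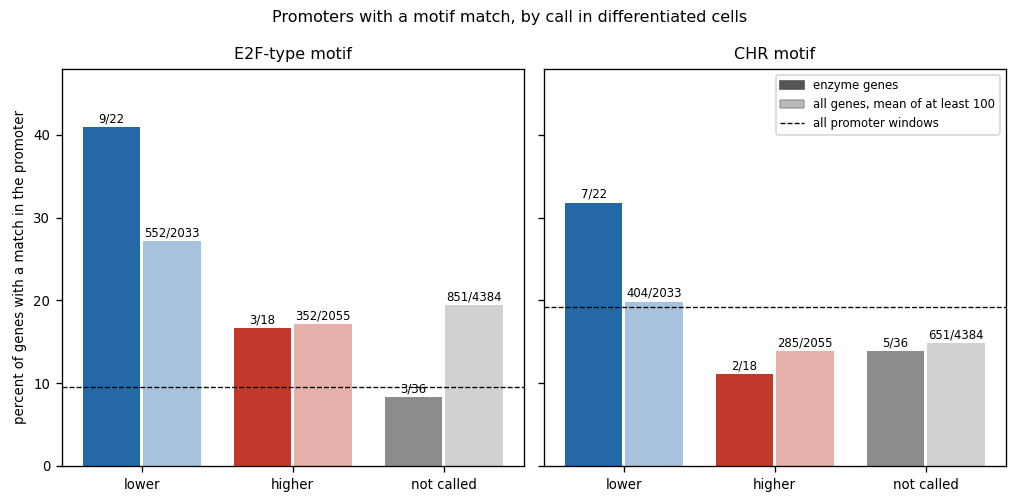
Percent of genes with an E2F-type match (left) or a CHR match (right) in any promoter window, for enzyme genes (dark bars) and well expressed genes (pale bars), split by their call in differentiated cells, with counts above the bars and the share of all promoter windows as a dashed line. The line counts single windows and the bars count genes. The tallest bar is the 40.9% of enzyme genes called lower that hold an E2F-type match, beside 27.2% of well expressed genes called lower.

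Enzymes that methylate H3 at lysine 9, the mark of heterochromatin, fell in 5 of 6 cases with a median of -0.50. Suv39h1 (chrX:8061171-8074760) and Suv39h2, the pair that marks the repeats around centromeres, fell by like amounts. Suv39h1 was at an implied 1480 in differentiated and 2723 in undifferentiated cells and fell by 0.88 (SE 0.12, adjusted p 1.65e-11) in the authors' deposited table. Suv39h2 was at 316 in differentiated and 615 in undifferentiated cells and fell by 0.96 (SE 0.17, adjusted p 1.77e-07) in the authors' deposited table. Setdb1, which silences retroviral sequences, fell by 0.38 (SE 0.09, adjusted p 4.03e-04), and the related Setdb2 fell by 0.61 (SE 0.15, adjusted p 2.21e-04), in the authors' deposited table. The pair that acts in euchromatin had the values nearest to 0. Ehmt1 fell by 0.29 (SE 0.09, adjusted p 0.00693), a call lost when the trend with mean expression was removed, and its partner Ehmt2 was at -0.09 (SE 0.11, adjusted p 0.554), not called, in the authors' deposited table.

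**Figure D3:**
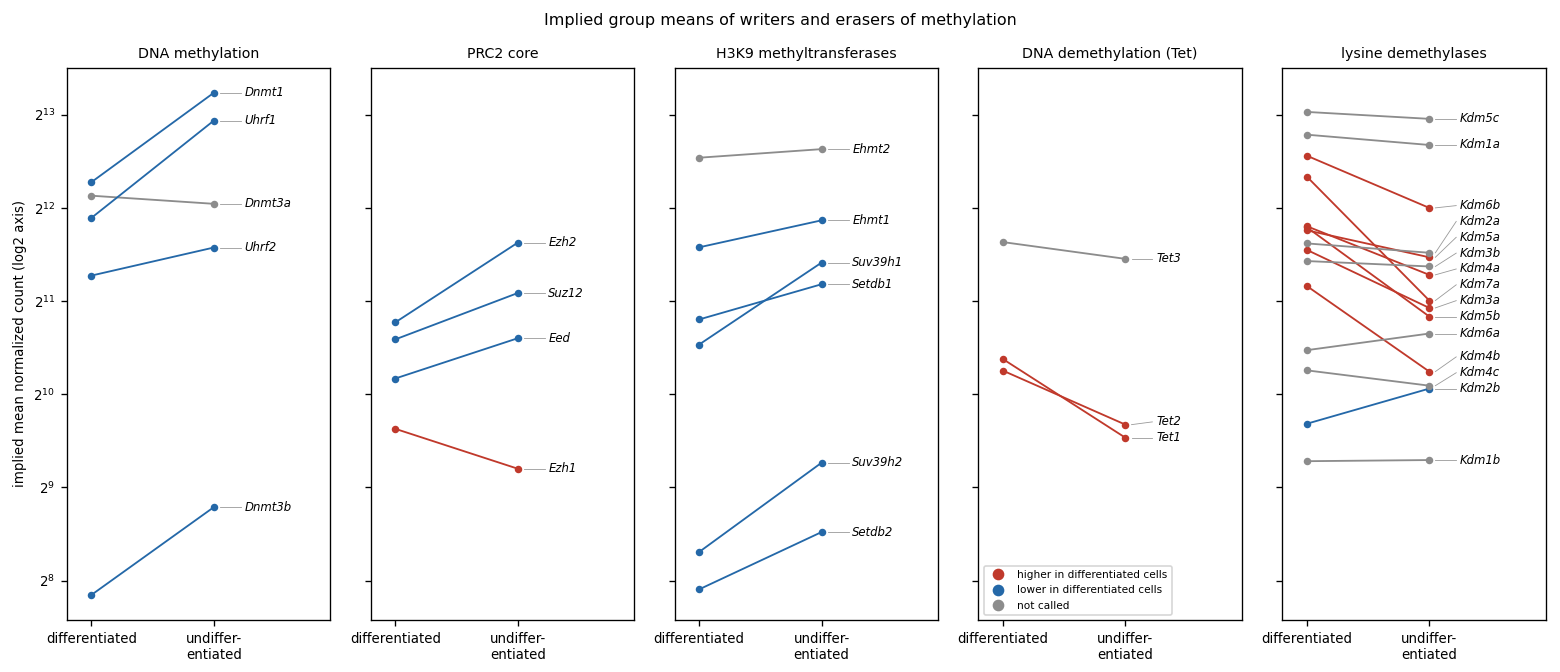
Implied mean normalized counts (log2 axis) in differentiated (left point) and undifferentiated (right point) CAD cells for the well expressed genes of 5 role classes, coloured by call. Dnmt1 stands at 4955 in differentiated and 9637 in undifferentiated cells, while Kdm7a stands at 5165 in differentiated and 2055 in undifferentiated cells.

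Of 17 lysine demethylase genes, 7 rose and 1 fell (median 0.16). Kdm7a (chr6:39136623-39206789), which removes methyl groups from H3 lysine 9 and lysine 27, stood at an implied 5165 in differentiated cells, against 2055 in undifferentiated cells. It rose by 1.33 (SE 0.37, adjusted p 0.00143) in the authors' deposited table, with a 95% interval of 0.61 to 2.05 that reaches from a small to a large change. Kdm5b and Kdm5a, which erase H3 lysine 4 methylation, both rose but by different amounts. Kdm5b was at 3543 in differentiated and 1824 in undifferentiated cells and rose by 0.96 (SE 0.20, adjusted p 9.23e-06), and Kdm5a rose by 0.29 (SE 0.10, adjusted p 0.00880), in the authors' deposited table. The related X-linked Kdm5c, which had the highest mean count of the demethylases at 8144, was at 0.07 (SE 0.08) and not called in the authors' deposited table, and the interval of Kdm5b lay apart from those of Kdm5a and Kdm5c.

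The demethylases of H3 lysine 9 and lysine 36 in the Kdm4 family rose in 2 of 4 cases. Kdm4b was at an implied 2289 in differentiated and 1211 in undifferentiated cells and rose by 0.92 (SE 0.21, adjusted p 7.81e-05) in the authors' deposited table. Kdm4a rose by 0.52 (SE 0.19, adjusted p 0.0183) and Kdm4c was at 0.16 (SE 0.14), not called, in the authors' deposited table. Kdm3a, which acts on H3 lysine 9 and is induced by low oxygen, was at 2995 in differentiated and 1944 in undifferentiated cells and rose by 0.62 (SE 0.15, adjusted p 3.01e-04) in the authors' deposited table. Kdm6b, an eraser of the Polycomb mark, was at 6033 in differentiated and 4092 in undifferentiated cells and rose by 0.56 (SE 0.18, adjusted p 0.00575) in the authors' deposited table. Kdm6a, the X-linked enzyme with the same substrate, was at -0.18 (SE 0.09, adjusted p 0.125), not called in the authors' deposited table, and the intervals of the pair lay apart. Kdm2b, which brings a Polycomb complex to unmethylated CpG islands, was the only demethylase gene called lower and fell by 0.38 (SE 0.10, adjusted p 6.20e-04) in the authors' deposited table. Removing the length trend ended the calls of Kdm4a and Kdm5a. The uncalled Kdm1a, Kdm1b, Kdm2a and Kdm3b lay between -0.01 and 0.11, and Kdm4d and Kdm5d were too low to judge, at means of 2.48 and 3.37.

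**Figure D4:**
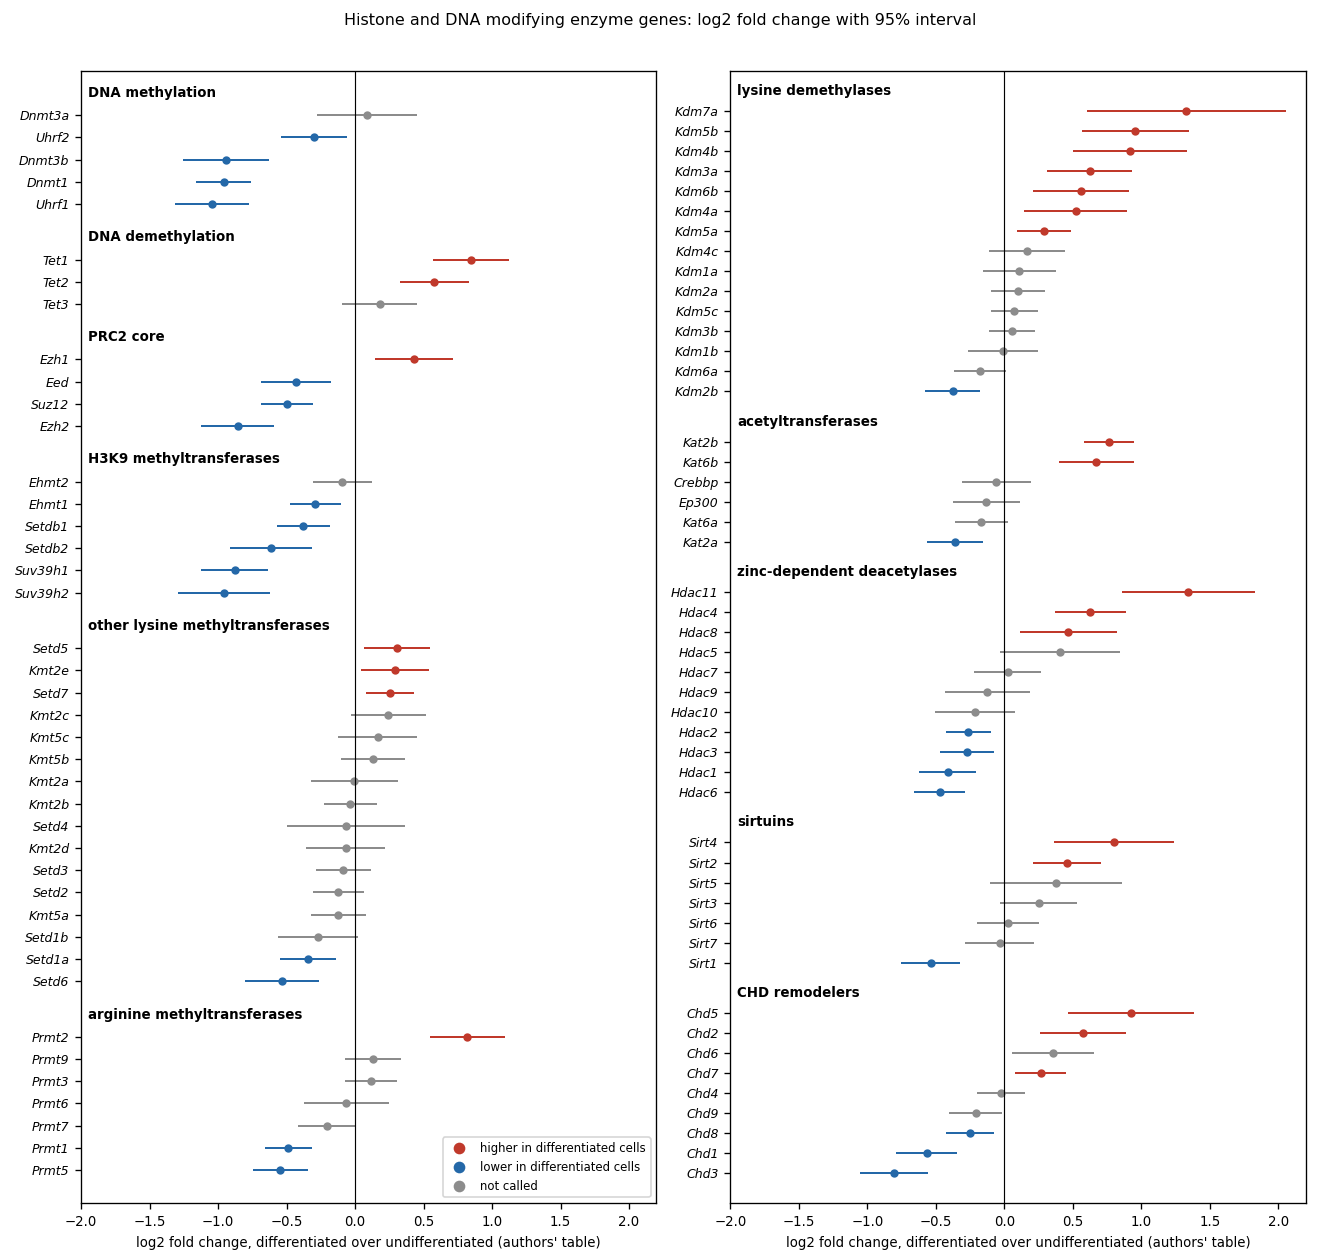
Log2 fold change (differentiated over undifferentiated) with its 95% interval for the 89 well expressed enzyme genes, by role class and coloured by call, from the authors' deposited table. The DNA methylation, PRC2 and H3 lysine 9 classes hold 12 of the 26 blue points and the Tet and demethylase classes 9 of the 24 red ones, with Hdac11 at 1.34 and Uhrf1 at -1.04 as the extremes.

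The other lysine methyltransferases were the most even class, with 11 of 16 not called and a median of -0.05. The large H3 lysine 4 methyltransferases Kmt2a, Kmt2b, Kmt2c and Kmt2d lay between -0.07 and 0.24 in the authors' deposited table, and none was called. Kmt2e, a relative without known strong enzyme activity, rose by 0.29 (SE 0.12, adjusted p 0.0490) in the authors' deposited table, at the edge of the threshold. Setd5 rose by 0.30 (SE 0.12, adjusted p 0.0324) and Setd7 rose by 0.26 (SE 0.08, adjusted p 0.00953) in the authors' deposited table. With the length trend removed, the calls of Kmt2e, Setd5 and Setd7 were lost. Setd1a, the catalytic subunit of a COMPASS complex that methylates H3 lysine 4, fell by 0.34 (SE 0.10, adjusted p 0.00260) in the authors' deposited table. Setd6, which methylates a subunit of NF-kappaB, was at an implied 419 in differentiated and 606 in undifferentiated cells and fell by 0.53 (SE 0.13, adjusted p 4.39e-04) in the authors' deposited table. The lysine 20 methyltransferases of histone H4, Kmt5a, Kmt5b and Kmt5c, lay between -0.12 and 0.16, and Setd1b, Setd2, Setd3 and Setd4 between -0.27 and -0.07, all uncalled.

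Among 8 arginine methyltransferases, 1 rose and 2 fell (median -0.14), and the main enzymes of both dimethylation types fell. Prmt1, the chief asymmetric methyltransferase, was at an implied 7384 in differentiated and 10342 in undifferentiated cells and fell by 0.49 (SE 0.08, adjusted p 1.49e-07) in the authors' deposited table. Prmt5, the chief symmetric one, was at 2484 in differentiated and 3624 in undifferentiated cells and fell by 0.54 (SE 0.10, adjusted p 4.39e-07) in the authors' deposited table. Prmt2, a weak methyltransferase, was at 1107 in differentiated and 627 in undifferentiated cells and rose by 0.82 (SE 0.14, adjusted p 2.58e-08) in the authors' deposited table. Prmt3, Prmt6, Prmt7 and Prmt9 lay between -0.21 and 0.13 and were not called. Prmt8, known as a brain form in mice, had a mean of 4.73, too low to judge.

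Of 6 acetyltransferases 2 rose and 1 fell (median -0.09, and -0.22 with the length trend removed), and they held 2 pairs of relatives that parted. Kat2b (PCAF) was at an implied 2036 in differentiated and 1197 in undifferentiated cells and rose by 0.77 (SE 0.09, adjusted p 7.60e-16), the second smallest adjusted p of all enzyme genes in the authors' deposited table. Its relative Kat2a (GCN5) was at 3195 in differentiated and 4105 in undifferentiated cells and fell by 0.36 (SE 0.10, adjusted p 0.00157) in the authors' deposited table. Kat6b, a subunit of the MOZ/MORF complexes, was at 1859 in differentiated and 1167 in undifferentiated cells and rose by 0.67 (SE 0.14, adjusted p 7.68e-06), while Kat6a was at -0.17 (SE 0.10, adjusted p 0.166), not called, in the authors' deposited table. The intervals lay apart in both pairs. The general coactivators Ep300 and Crebbp stood at -0.13 (SE 0.12) and -0.06 (SE 0.12) in the authors' deposited table, both uncalled.

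Of 11 zinc-dependent histone deacetylases, 3 rose and 4 fell (median -0.12). The class I enzymes of the nuclear corepressor complexes fell, and Hdac1 fell by 0.41 (SE 0.10, adjusted p 2.95e-04) in the authors' deposited table. Hdac2 fell by 0.26 (SE 0.08, adjusted p 0.00433) and Hdac3 fell by 0.27 (SE 0.10, adjusted p 0.0156) in the authors' deposited table. Hdac8, the class I enzyme that deacetylates cohesin, was at an implied 261 in differentiated and 189 in undifferentiated cells and rose by 0.47 (SE 0.18, adjusted p 0.0265) in the authors' deposited table. Removing the trend with mean expression ended the calls of Hdac2 and Hdac8. Hdac6, the tubulin deacetylase of the cytoplasm, was at 1818 in differentiated and 2523 in undifferentiated cells and fell by 0.47 (SE 0.09, adjusted p 1.77e-06) in the authors' deposited table.

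Hdac11 (chr6:91156665-91174692), the only class IV enzyme, which removes long acyl groups, had the highest fold change of all 92 tested enzyme genes. It stood at an implied 1314 in differentiated cells, against 517 in undifferentiated cells, and rose by 1.34 (SE 0.24, adjusted p 4.46e-07) in the authors' deposited table, which is 2.54-fold. Of the class IIa enzymes, which shuttle between nucleus and cytoplasm in neurons, Hdac4 was at 1724.5 in differentiated and 1115 in undifferentiated cells and rose by 0.63 (SE 0.13, adjusted p 1.01e-05) in the authors' deposited table. Hdac5 had a similar value of 0.41 but a wider error (SE 0.22, adjusted p 0.140) and was not called in the authors' deposited table. Hdac7 and Hdac9 were at 0.03 and -0.12, and Hdac10 at -0.21, all uncalled, and the interval of Hdac4 lay apart from those of Hdac7 and Hdac9.

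Sirtuins, deacylases that use NAD, rose in 2 and fell in 1 of 7 cases (median 0.25). Sirt1, a nuclear sirtuin, was at an implied 1038 in differentiated and 1506 in undifferentiated cells and fell by 0.54 (SE 0.11, adjusted p 4.70e-06) in the authors' deposited table. Sirt2, a cytoplasmic enzyme that acts on tubulin, was at 865 in differentiated and 629 in undifferentiated cells and rose by 0.46 (SE 0.12, adjusted p 0.00101) in the authors' deposited table. Sirt4, a mitochondrial sirtuin, was at 137 in differentiated and 78.4 in undifferentiated cells and rose by 0.80 (SE 0.22, adjusted p 0.00128) in the authors' deposited table. The other mitochondrial members, Sirt3 at 0.25 (SE 0.14) and Sirt5 at 0.37 (SE 0.24) in the authors' deposited table, missed the threshold, and Sirt6 and Sirt7 were at 0.03 and -0.03.

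The CHD remodelers, which slide nucleosomes with the energy of ATP, moved in both directions, with 3 of 9 higher and 3 lower. Chd3, Chd4 and Chd5 are alternative motors of the NuRD complex, which joins remodeling to deacetylation. Chd4 had the highest mean count of all enzyme genes, at an implied 23809 in differentiated and 24212 in undifferentiated cells, and its value of -0.02 (SE 0.09, adjusted p 0.875) was not called in the authors' deposited table. Chd3 was at 3291 in differentiated and 5744 in undifferentiated cells and fell by 0.80 (SE 0.12, adjusted p 1.33e-09) in the authors' deposited table. Chd5, the form known from neurons, was at 1217 in differentiated and 641 in undifferentiated cells and rose by 0.92 (SE 0.23, adjusted p 3.56e-04) in the authors' deposited table. No interval of these motors overlapped another.

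Of the other remodelers, Chd1, which binds H3 lysine 4 methylation, was at an implied 5299.6 in differentiated and 7852 in undifferentiated cells and fell by 0.57 (SE 0.11, adjusted p 2.12e-06) in the authors' deposited table. Chd2 rose by 0.57 (SE 0.16, adjusted p 0.00140) in the authors' deposited table, as much as Chd1 fell. Chd7, the gene of CHARGE syndrome in humans, rose by 0.27 (SE 0.09, adjusted p 0.0127) and Chd8, linked to autism in humans, fell by 0.25 (SE 0.09, adjusted p 0.0133) in the authors' deposited table. Chd7 lost its call with the length trend removed, and Chd8 with the mean expression trend removed. Chd6, at 0.36 (adjusted p 0.0505), and Chd9, at -0.21 (adjusted p 0.0760), just missed the threshold in the authors' deposited table.

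Paralogs were set side by side. Of 30 pairs of paralogs in 17 sets, the 95% intervals lay apart in 15. In 3 pairs 1 gene was called higher and the other lower: Ezh1 and Ezh2, Kat2b and Kat2a, and Chd5 and Chd3. Pairs of 1 set share genes, the share of unrelated pairs with intervals apart was not computed, and intervals that overlapped do not show that paralogs moved alike.

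Genes with opposite calls also lie side by side in the genome. Uhrf1 and Kdm4b sit head to tail on chromosome 17, on the same strand and 2575 bp apart, with no protein-coding gene between them in GENCODE M21. Chd3, which fell, and Kdm6b, which rose, lie 29101 bp apart on chromosome 11 with 3 protein-coding genes between them. These were the only pairs of enzyme genes within 50 kb of each other without overlap, and they were looked up after the values were known.

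The enzyme genes that rose were measured less evenly than those that fell. Their median SE was 1.14 times the median of genes of equal mean, and 7 of 24 exceeded 1.5 times. Genes that fell had a median ratio of 0.95, and 0 of 26 exceeded 1.5 times. The same was seen in part over well expressed genes, where 496 of 2891 called higher and 140 of 3375 called lower exceeded 1.5 times. The widest were Kdm7a at 3.47 times and Hdac11 at 1.99 times, followed by Chd5, Kdm5b, Kdm4b, Kdm4a and Kdm6b between 1.73 and 1.86 times. The highest fold changes were thus among those with the widest errors for their level, and whether 1 library carries them cannot be read from the table.

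**Figure D5:**
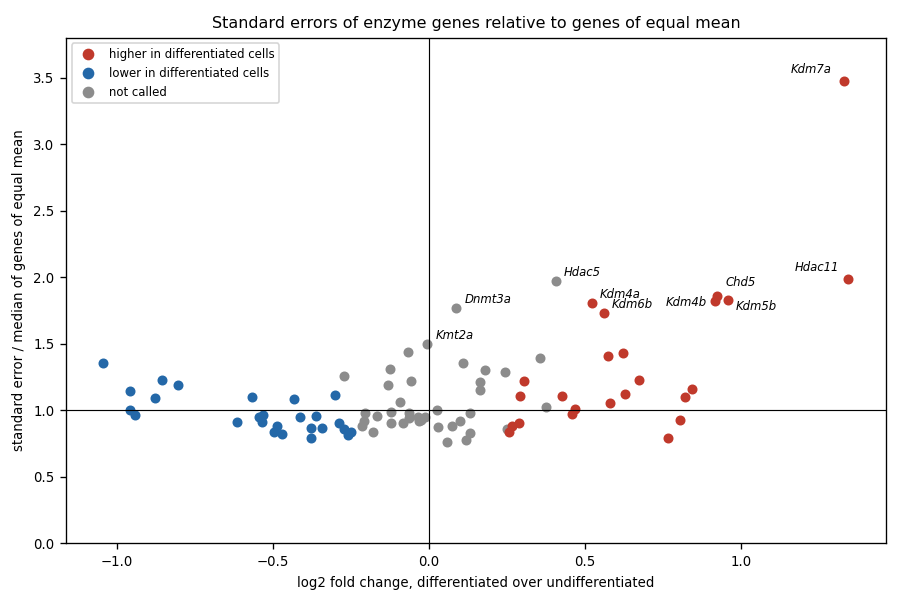
Standard error of the log2 fold change divided by the running median of genes of nearest mean (vertical) against the log2 fold change (horizontal) for the 89 well expressed enzyme genes, coloured by call, with genes over 1.5 named. Kdm7a stands at 3.47 and Hdac11 at 1.99, while no gene called lower exceeds 1.36.

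Some values may hold reads of a neighbour, since the sources do not give the strand setting of the count. An overlapping gene with a mean of at least 10 was annotated for 23 of the enzyme genes, 11 of them called. Sirt2 overlaps Nfkbib on the opposite strand, which fell by 0.61 while Sirt2 rose, and Kmt2e overlaps Srpk2, which rose by 0.47, in the authors' deposited table. The uncalled Prmt7 overlaps Smpd3, which rose by 1.72 in the authors' deposited table at a mean close to that of Prmt7 (4524 for Smpd3 and 4238 for Prmt7).

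Genes that work with these enzymes but carry other names were counted in lists, to be read beside the 21.9% higher and 25.6% lower among well expressed genes. Of 7 tested partners of Polycomb complex 2, 4 fell and 1 rose (median -0.27, and -0.16 with no filter on low values or with the mean expression trend removed), and the facultative subunits parted most. Phf19 was at an implied 135 in differentiated and 359.7 in undifferentiated cells and fell by 1.42 (SE 0.20, adjusted p 4.06e-11) in the authors' deposited table. Phf1, its paralog, was at 672 in differentiated and 270.0 in undifferentiated cells and rose by 1.31 (SE 0.18, adjusted p 5.28e-12) in the authors' deposited table. Mtf2, of the same family, fell by 0.45, and the histone binder Rbbp4, which serves several complexes, fell by 0.45 in the authors' deposited table. Of 18 members of Polycomb complex 1, 4 rose and 3 fell (median 0.05), and the readers of the lysine 27 mark Cbx7 at 0.47 and Cbx8 at 0.42 were among those that rose, as was Phc3 at 0.40, in the authors' deposited table.

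Shared subunits of the H3 lysine 4 methyltransferases fell in 5 of 10 cases and rose in none (median -0.21), led by Hcfc1 at -0.73, Wdr5 at -0.54, Dpy30 at -0.47 and Cxxc1 at -0.40 in the authors' deposited table. Subunits of deacetylase corepressor complexes fell in 9 of 21 cases and rose in 1 (median -0.09, and -0.19 with the length trend removed), with Sap30 at -0.47, Brms1 at -0.45 and Sap18 at -0.38 lower and Rcor1 at 0.35 higher in the authors' deposited table. With fold changes centred on the median gene these were 7 lower and 3 higher, and with the mean expression trend removed 5 and 3. Readers of methylated DNA and of H3 lysine 9 methylation rose in 4 and fell in 3 of 12 cases (median -0.07). Among those that rose were the binders of methylated DNA Zbtb4 at 1.14 and Zbtb38 at 0.67, and Mbd5, of a methyl-CpG binder family, at 0.51 in the authors' deposited table. The 3 that fell, Trim28 at -0.41, Cbx5 at -0.40 and Cbx3 at -0.24 in the authors' deposited table, belong to the heterochromatin system of H3 lysine 9 and are named here after their values were seen.

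Acetyltransferases of other names and their subunits fell in 8 of 23 cases and rose in 1 (median -0.15). Hat1, which acetylates new histone H4 before it is laid down on DNA, fell by 0.90 (SE 0.13, adjusted p 2.59e-11) in the authors' deposited table, and Ing5 followed at -0.50. With the length trend removed, 12 of these fell and 0 rose. Methyltransferases and demethylases of other names fell in 5 of 23 cases and rose in 1 (median -0.10), with Smyd5 at -0.38, Riox2 at -0.36 and Carm1 at -0.35 lower in the authors' deposited table. The 1 that rose was Prdm9, known from meiosis in mice, at an implied 433 in differentiated and 252 in undifferentiated cells (0.78, SE 0.19 in the authors' deposited table). Of 6 bromodomain readers of acetylated histones, Brd9 at -0.36 and Brd3 at -0.28 fell and Brdt, known from the testis in mice, rose by 1.08 (SE 0.23) in the authors' deposited table.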

How the data were processed

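RNA from CAD cells (3 differentiated and 3 undifferentiated libraries) was made into stranded mRNA libraries and sequenced as 50 bp single-end reads, per the labels' protocols. FastQC 0.11.5, Trimmomatic 0.36, STAR 2.5.1a, DESeq2 and the build GRCm38.p6 are named in the submitters' processing notes. For the counting tool, its strand setting and the annotation, the entry is: not given in the sources used here. Per the file headers, the authors deposited mean normalized counts (signal scaled by size factors), log2 fold changes, their standard errors, a test score (the Wald statistic, which equals fold change over SE), p-values and adjusted p-values.

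From these were computed the calls (adjusted p under 0.05), implied group means, 95% intervals (normal, from the SE), the ratio of each SE to the running median of genes of nearest mean, and exact motif matches in RefSeq promoter windows. Gene names, lengths and positions came from GENCODE M21, in which 26311 of 26436 gene IDs were found, and 16698 rows carried a symbol in the table. The sum of mean normalized counts was 3.88e+07, and library depths are unknown. The 6151 genes without an adjusted p had means of at most 2.25. The median SE of the enzyme genes, 0.12, gives an interval of 1.18-fold to each side. Work used Python 3.11.15 with pandas 2.3.3, scipy 1.17.1 and statsmodels 0.14.6 (LOWESS span 0.3). The calling step was run on simulated fold changes drawn with the authors' standard errors, which checks the code and cannot test those errors. The enzyme genes, role classes and partner lists were chosen with earlier results of these data known. Every tested enzyme gene may be named, and of each partner list up to 4 called genes with the largest change and a mean of at least 100. Alternatives were a stricter threshold, a fold minimum, filters on the mean, protein-coding genes, centring, and removal of trends with mean expression or length. With 1 value per gene, no library could be left out. Some genes that this rule would name are not reported here.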

Additional observations from a re-analysis of the deposited data

How the results depend on the processing

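No called enzyme gene changed direction under any of the 9 alternatives run. Of the 50 called, 39 kept their call in all 7 alternatives that left the threshold alone. The 11 that lost it in at least 1 were Chd7, Kdm4a, Kdm5a, Setd5 and Setd7 (length trend removed), Kmt2e (length trend removed, and no filter on low values), Chd8, Ehmt1, Hdac2 and Hdac8 (mean expression trend removed) and Uhrf2 (mean expression trend removed, and centring). Of the 42 not called, 7 gained a call in at least 1 of these, Chd6 in 5 of them, and Chd9, Kat6a, Kdm6a, Prmt7, Setd1b and Setd2, all lower, with the length trend removed. Centring shifted every value by 0.03, and calls were then 25 higher and 25 lower (over all genes 4010 and 3197). With the length trend removed they were 18 and 32 (over all genes 3214 and 3868). Among the classes the other lysine methyltransferases then had 0 higher and 4 lower, the lysine demethylases 5 and 2, the acetyltransferases 2 and 2 and the readers of methylation 4 and 5. With the mean expression trend removed the calls were 24 and 22 (over all genes 3677 and 3318). At an adjusted p under 0.01 they were 19 and 23 (over all genes 2733 and 2718). Asking for a fold of at least 1.5 as well left 12 enzyme genes higher and 8 lower, and 2355 of all genes higher and 1431 lower, since that rule removes small changes by construction. With the length trend removed the median of the bromodomain readers was -0.16, against -0.06. Shares of paralogs per kb moved with the choice of transcript length in 34 of 80 values, so only that of Ezh2 is given, which with the median length was 79.5% in differentiated and 90.4% in undifferentiated cells. No paired analysis was possible because the table holds no value of a single library. For the same reason no library could be left out, and a result carried by 1 library would not show.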
